A study of Homo sapiens with 48 samples.

Results

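H-929 is an established human multiple myeloma cell line, derived from a tumour of plasma cells, the antibody-secreting end stage of the B cell lineage. Its response to carfilzomib was read from 6 of the 48 RNA-seq libraries of a study of 8 cancer cell lines, chosen by their labels alone. They are 3 libraries of H-929 cells given carfilzomib for 24 h and 3 of H-929 cells given DMSO, the solvent, for the same time. The labels call the 3 libraries of a group biological triplicates, and the p-values below measure the spread between them. Per the labels, the concentration was set for each line by how far it inhibited proteasome activity, and its value is not used here. H-929 is a single line, treated at a single concentration and time. RPMI, the other myeloma line of the study, was also given carfilzomib or DMSO for 24 h and serves as the line for comparison, with 3 libraries in each group. Because the concentration was set by line, effects of line and of concentration cannot be told apart in any comparison of responses between lines.

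The proteasome is the barrel-shaped protease that degrades proteins tagged with ubiquitin, and carfilzomib blocks it irreversibly by binding to the catalytic subunit encoded by PSMB5. Plasma cells make and secrete large amounts of antibody, and proteasome inhibitors are used to treat myeloma. Proteins that are no longer degraded set off several programmes in animal cells. Heat shock factors raise the cytosolic chaperones, the transcription factor encoded by NFE2L1 raises the proteasome subunits, the unfolded protein response raises the chaperones of the endoplasmic reticulum (ER), and the integrated stress response raises ATF4 and its target genes.

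Totals ran from 14643911 to 18857059 counts in DMSO, while after carfilzomib they ran from 9116329 to 9927869, so the drug-treated libraries are the shallower ones. Across genes, log2 levels of libraries of the same group correlated at 0.979 to 0.983 (DMSO) and 0.962 to 0.963 (carfilzomib), and those of libraries of different groups at 0.897 to 0.906. Levels are given as CPM, the counts of a gene scaled to a fixed total by the library's own total and its composition factor (TMM). The marker sums, here and below, are scaled by the total alone. CPM are shares of a library and depend on transcript length, so the levels of named genes are compared between libraries and not with each other, and a change in the RNA content of a cell is not seen. Of the 14 plasma cell markers, 12 have a row, and their summed level was 12344 to 12859 CPM in DMSO and 6514 to 7186 CPM after carfilzomib. DERL3, on a row that shares its identifier with another, was at 0 in the carfilzomib libraries. FGFR3 and NSD2, which are known to be driven from the immunoglobulin heavy chain locus in this line, summed to 1908 to 2079 CPM in DMSO and 2043 to 2222 CPM after carfilzomib. Of the markers of other cell types, those of epithelium summed highest, at 41.997 to 53.2 CPM in DMSO and 89.4 to 99.2 CPM after carfilzomib, most of it KRT18, a keratin. T and NK cell markers summed to at most 23.8 CPM, monocyte and macrophage markers to 11.5 CPM, fibroblast markers to 9.71 CPM and mature B cell markers to 7.55 CPM in any library. The part of these levels in the results was not tested. The RNA of noncoding genes took 4.97% to 5.56% of the counts of a DMSO library and 12.03% to 13.7% of a carfilzomib library, and the 10 highest genes took 6.45% to 6.78% and 11.8% to 13.2%.

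Genes rose and fell with carfilzomib in near-equal numbers in H-929, and the rises were more often large. Of 15682 genes tested, 4141 rose (26.4%) and 4104 fell (26.2%) at an adjusted p under 0.05 (edgeR's quasi-likelihood test with Benjamini-Hochberg adjustment, which gives every adjusted p below unless another tool is named). Of the genes that rose, 2503 rose by at least 2-fold, and of those that fell, 672 fell by at least 2-fold. Rises were more frequent in the classes of low mean CPM, which mix level and transcript length, and falls in the classes of high mean CPM, as the plot of all genes shows. Of 2116 genes with a mean of at least 100 CPM, 21.1% rose and 54.1% fell, with a median log2 fold change of -0.26. Of 5561 genes between 1 and 10 CPM, 33.2% rose and 5.92% fell, with a median of 0.48. The median over all genes was 0.03. Upper quartile scaling moved all log2 fold changes up by 0.13, and 61.6% of the calls were then rises, against 50.2% as reported. The members of a list are read against these shares.

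**Figure D1:**
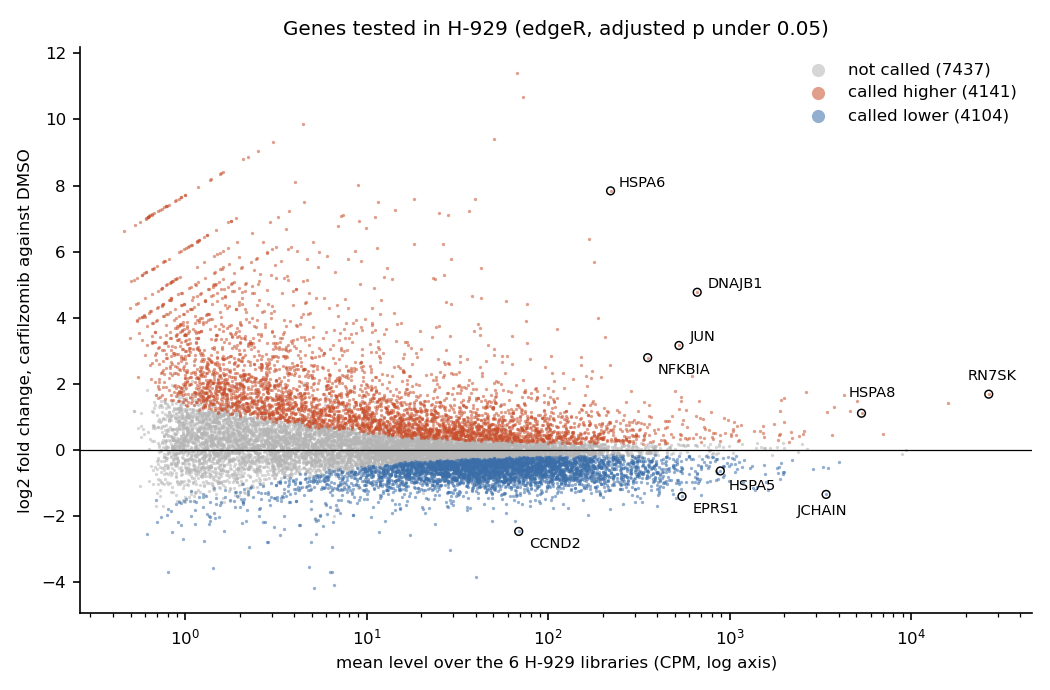
Each point is a gene tested in H-929, with its mean level over the 6 libraries (CPM, log axis) against its log2 fold change, carfilzomib against DMSO. The 4141 genes called higher reach log2 fold changes above 8 and crowd the low levels, while the 4104 called lower lie mostly above 10 CPM and seldom pass -2.

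Inducible cytosolic chaperones rose steeply, from nearly no counts in the case of HSP70. HSPA1A and HSPA1B encode the stress-inducible HSP70, and because their transcripts are near-identical their 8 rows were summed. The sum stood at 0.344, 0.865 and 0.342 CPM in the DMSO libraries and at 367, 469 and 427 CPM in the carfilzomib libraries. No DMSO library held more than 16 counts and no carfilzomib library fewer than 3646, a log2 fold change of 9.60 ± 0.19 (SE; adjusted p = 1.6e-13). HSPA6 (ENSG00000173110), a further inducible HSP70 gene, went from 2.68, 1.57 and 1.43 to 429.9, 406 and 484 CPM, a log2 fold change of 7.84 ± 0.16 (adjusted p = 2.3e-13). DNAJB1 (ENSG00000132002), the J-domain partner that loads clients onto HSP70, was at 46.2, 45.4 and 49.4 CPM in DMSO and at 1217, 1261 and 1359.5 CPM after carfilzomib, a log2 fold change of 4.77 ± 0.085 (adjusted p = 7.6e-14). In all 3 genes or sums the groups were far apart, and the highest DMSO library lay below the lowest carfilzomib library.

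Other cytosolic chaperone genes rose by less than these 3, and some were not called or fell. HSPA8, the constitutive cytosolic HSP70, rose from 3247, 3542 and 3381 to 8259, 6948 and 6621 CPM, a log2 fold change of 1.10 ± 0.085. HSP90AA1, the inducible cytosolic HSP90, rose from 2127, 2176 and 2269 to 5470.2, 5295 and 5254 CPM, a log2 fold change of 1.29 ± 0.066, while its constitutive relative HSP90AB1 was at 2383, 2415 and 2488 in DMSO and 2519, 2231 and 2229.8 after carfilzomib, overlapped between the groups and was not called (-0.062, adjusted p = 0.49). The nucleotide exchange factors HSPH1 and BAG3 rose by 1.35 ± 0.08 and 2.38 ± 0.10, and the small heat shock protein gene HSPB1 by 1.38 ± 0.094. Of the genes with their own rows in the heat shock list, 36 were tested: 15 rose, 8 fell and 13 were not called, with a median of 0.13 that turned to -0.028 in the fit of all 48 libraries and to -0.0050 without carfilzomib replicate 2. By role, 5 of 8 J-domain co-chaperones rose and 2 fell. Of 15 genes of the HSP70 family and its exchange factors 5 rose and 5 fell, and of 8 genes of HSP90 and its co-chaperones 3 rose and 1 fell. The largest falls were those of FKBP5, an HSP90 co-chaperone of steroid receptors, from 93.6 ± 5.25 to 35.3 ± 4.69 CPM (SD, n = 3; log2 fold change -1.41 ± 0.11), and HSPA13, a microsomal HSP70, at -1.25 ± 0.11.

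**Figure D2:**
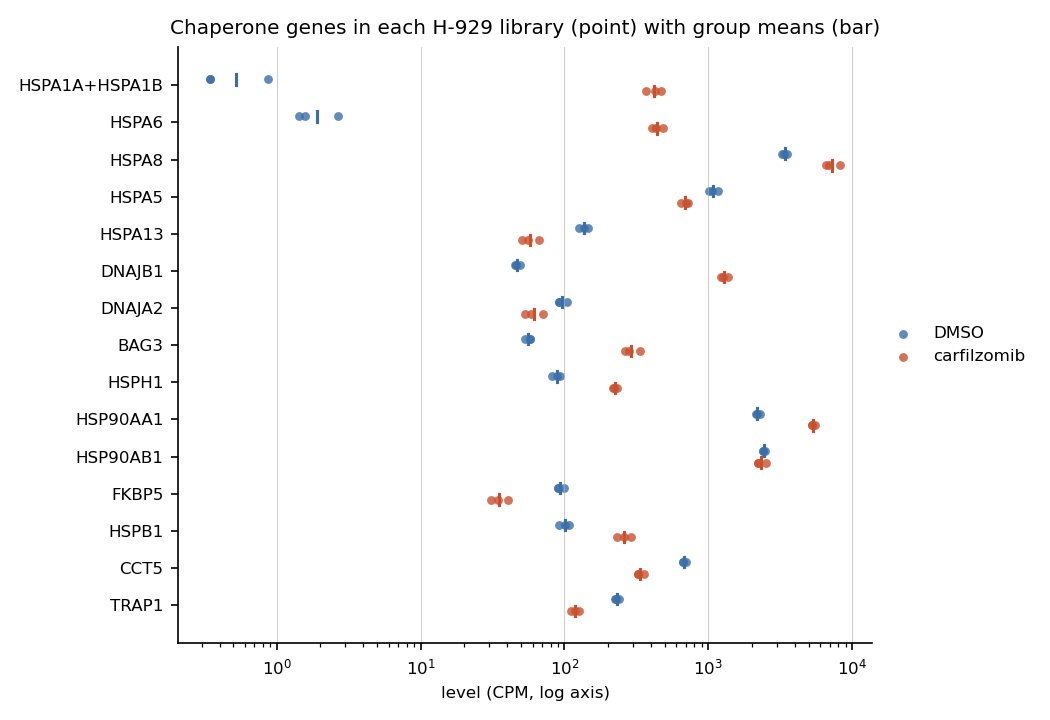
Level of 14 chaperone genes and of the sum of HSPA1A and HSPA1B in each H-929 library (CPM, log axis), with 3 DMSO and 3 carfilzomib libraries as points and the group mean as a bar. HSP70 and DNAJB1 rise by more than an order of magnitude, HSP90AB1 overlaps, and HSPA5, HSPA13, FKBP5, CCT5 and TRAP1 are lower after carfilzomib.

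Heat shock factors bind repeats of a 3-base unit in alternating orientation, and the promoters of these genes were searched for such repeats. The window was RefSeq's (GRCh38.p14), 250 bases before to 50 after the start, on both strands. A pair of units (GAANNTTC or TTCNNGAA) and a run of 3 units, which always holds a pair, were searched. The run of 3 units was in the window of 7 of 36 heat shock genes with a promoter entry (19.4%), against 0.608% of all 27305 genes with one. The pair was in 16 of 36 (44.4%) against 16.2%. Printed here, with the units in capitals, are the upstream stretches of 3 genes that rose and of HSP90AB1, which was not called, to show that the same run of units stands before genes that moved very differently.
HSPA6, chr1:161524426-161524518, plus strand: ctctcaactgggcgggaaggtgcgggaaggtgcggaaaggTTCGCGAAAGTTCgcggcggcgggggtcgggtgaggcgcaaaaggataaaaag
HSPA8, chr11:123062139-123062386, minus strand: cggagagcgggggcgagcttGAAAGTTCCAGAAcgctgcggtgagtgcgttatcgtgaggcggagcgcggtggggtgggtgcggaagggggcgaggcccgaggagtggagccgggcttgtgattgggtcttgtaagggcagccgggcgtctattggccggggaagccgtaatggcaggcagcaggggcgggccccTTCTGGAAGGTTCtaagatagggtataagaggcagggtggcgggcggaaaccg
HSP90AA1, chr14:102087080-102087172, minus strand: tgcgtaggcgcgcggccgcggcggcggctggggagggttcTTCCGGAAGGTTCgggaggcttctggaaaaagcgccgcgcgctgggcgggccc
HSP90AB1, chr6:44247738-44247883, plus strand: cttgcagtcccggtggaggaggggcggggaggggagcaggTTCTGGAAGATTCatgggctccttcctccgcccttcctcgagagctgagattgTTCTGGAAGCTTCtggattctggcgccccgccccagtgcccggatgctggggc
HSPA8 and HSP90AB1 carry 2 runs in their windows, and HSPA6 and HSP90AA1 carry 1. Of the genes called higher, 0.750% of those with a promoter entry held a run of 3 units, against 0.515% of all genes tested and 0.365% of the genes called lower. A match is a description of these letters, not a site of binding.

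The cytosolic chaperonin fell, as did most mitochondrial chaperone and protease genes, while the genes of the mitochondrial chaperonin rose. All 8 subunits of the TRiC chaperonin, the ring that folds actin and tubulin, fell, with a median of -0.79. CCT5 went from 671, 696 and 671 to 358, 325 and 327 CPM, a log2 fold change of -1.01 ± 0.07. Of 13 mitochondrial chaperone and protease genes tested 8 fell and 2 rose (median -0.47). TRAP1, the mitochondrial HSP90, fell by 0.96 on the log2 scale. HSPD1, which encodes the mitochondrial chaperonin HSP60, rose by 0.51 (adjusted p = 2.7e-05). HSPE1, the co-chaperonin of HSP60, rose from 9.70, 10.6 and 7.83 to 21.2, 27.7 and 25.5 CPM. Among all genes of at least 100 CPM, 54.1% fell.

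Most subunits of the inhibited machine itself rose, by modest amounts. Of 31 proteasome subunit genes tested 21 rose and 2 fell, with a median of 0.46, and only PSMC3 passed 2-fold. The ATPase ring and scaffold of the regulatory particle rose most evenly: 8 of its 9 base subunits were called higher (median 0.77). PSMC3 (ENSG00000165916), an ATPase of that ring, went from 148, 161 and 149 to 375, 309.7 and 326 CPM, a log2 fold change of 1.14 ± 0.084 (adjusted p = 8.3e-08). Of the 9 lid subunits, which remove ubiquitin from the substrate, 6 rose and PSMD7 fell (-0.44 ± 0.07). Among the 6 beta subunits of the core, which hold the active sites, 5 rose, led by PSMB7 at 0.80 ± 0.087. PSMB5, the target of the drug, was at 44.4, 40.5 and 44.9 CPM in DMSO and 60.1, 55.5 and 45.4 CPM after carfilzomib. The groups did not overlap, but its log2 fold change of 0.31 ± 0.12 was small, and its call (adjusted p = 0.037) was lost without any 1 of the 3 DMSO libraries or of carfilzomib replicates 1 and 2, with log2 fold changes of 0.19 to 0.32 in those fits, and was kept without carfilzomib replicate 3 (0.39). The alpha subunits that gate the core stayed near their DMSO level, with 2 of 7 higher, 1 lower and a median of 0.075. The lower one, PSMA4 (-0.28 ± 0.10), lost its call without DMSO replicate 2 (-0.25, adjusted p = 0.083). PSMC4 and PSMB3 are on rows that share an identifier and are not used. NFE2L1 rose from 138, 134 and 136 to 209, 218 and 259 CPM (0.75 ± 0.088). Of 11 proteasome assembly chaperones tested, by contrast, 6 fell and 1 rose (median -0.34).

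Ubiquitin and its handling genes rose in part. ZFAND2A, an arsenite-inducible regulator of the proteasome, rose from 4.97, 6.56 and 6.95 to 19.7, 19.5 and 23.5 CPM (1.76 ± 0.19, adjusted p = 3.0e-06), while ZFAND1 fell by 0.95 on the log2 scale. Of 26 genes on the list 13 rose and 8 fell, with a median of 0.22.

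Within the integrated stress response, the transcription factors and feedback genes mostly rose and the genes of amino acid supply mostly fell. DDIT3 (ENSG00000175197), which encodes the transcription factor CHOP, rose from 16.8, 13.3 and 13.8 to 133, 128 and 154 CPM, a log2 fold change of 3.24 ± 0.12 (adjusted p = 8.2e-11). ATF3 and PPP1R15A, the latter a feedback subunit that restores translation, rose by 2.31 ± 0.086 and 2.23 ± 0.071. The transcript of ATF4, which is controlled mainly through its translation, was at 857, 855.04 and 765 CPM in DMSO and 825, 858 and 908 CPM after carfilzomib, overlapped and was not called (adjusted p = 0.48). Of the 12 transcription factor and feedback genes tested 7 rose and 2 fell (median 0.92). CHAC1, a glutathione-degrading enzyme, rose by 1.32 ± 0.13, and TRIB3, a pseudokinase that feeds back on ATF4, was not called at 0.41 ± 0.18 (adjusted p = 0.067), though it was under upper quartile scaling (0.55) and without DMSO replicate 3 (0.50) or carfilzomib replicate 2 (0.53).

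All 11 aminoacyl-tRNA synthetase genes tested fell, with a median of -0.94. EPRS1, which charges glutamate and proline, fell most, from 795, 854.83 and 737 to 321, 285 and 288 CPM, a log2 fold change of -1.42 ± 0.08 (adjusted p = 6.5e-09). Genes of amino acid synthesis and transport fell with them: of 16 tested 11 fell and 2 rose (median -0.60). SLC7A1, a transporter of cationic amino acids, fell from 144, 137 and 129.8 to 42.5, 35.7 and 55.4 CPM (-1.62 ± 0.13), and the serine synthesis genes PHGDH and PSAT1 fell, with log2 fold changes of -0.997 and -1.42. ASNS, asparagine synthetase, went the other way, from 10.2, 12.3 and 9.06 to 21.4, 19.7 and 21.4 CPM (0.98 ± 0.16). Over the whole list 9 of 43 rose and 27 fell.

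Rising and falling members carry the same promoter element. The ATF4 element (TGATGNAA, both strands) was in the window of 14 of 37 genes of the list with a promoter entry (37.8%), against 4.46% of all promoters. Those 14 include CHAC1, ATF3 and ASNS, which rose, and 7 synthetase genes, which all fell, CARS1 among them on a row that shares an identifier. Matches upstream of the start are shown for 2 genes that rose and 3 that fell, with the element in capitals.
CHAC1, chr15:40953222-40953309, plus strand: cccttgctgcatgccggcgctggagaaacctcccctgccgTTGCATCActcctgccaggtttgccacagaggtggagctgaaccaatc
ASNS, chr7:97872429-97872516, minus strand: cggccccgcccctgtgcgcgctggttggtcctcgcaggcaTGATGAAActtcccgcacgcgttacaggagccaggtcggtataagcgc
AARS1, chr16:70289646-70289733, minus strand: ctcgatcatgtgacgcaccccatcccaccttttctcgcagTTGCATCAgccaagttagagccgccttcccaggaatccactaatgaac
GARS1, chr7:30594805-30594877, plus strand: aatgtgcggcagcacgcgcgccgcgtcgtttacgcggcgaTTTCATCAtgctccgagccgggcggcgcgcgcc
IARS1, chr9:92293698-92293750, minus strand: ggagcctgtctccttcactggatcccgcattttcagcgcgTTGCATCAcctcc
AARS1, which charges alanine, fell from 595, 634 and 553 to 308, 281 and 288 CPM (-1.02 ± 0.075). GARS1, which charges glycine, fell from 703, 724 and 597 to 357, 357 and 363 CPM (-0.91 ± 0.08), and IARS1, which charges isoleucine, fell from 396, 429.7 and 362 to 226, 225 and 243 CPM (-0.78 ± 0.08). In each of the 3 the lowest DMSO library lay above the highest carfilzomib library.

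Genes of the unfolded protein response of the ER fell. Of 32 tested 23 fell and 4 rose (median -0.65). HSPA5 (ENSG00000044574), the ER chaperone BiP, fell from 1068, 1175 and 1013 to 728, 702 and 649.6 CPM, a log2 fold change of -0.65 ± 0.077 (adjusted p = 7.9e-06). PDIA4, a disulfide isomerase, fell from 979, 1056 and 988 to 350.1, 413 and 412 CPM (-1.36 ± 0.08), and ERO1A, which reoxidises such isomerases, fell too (-1.57 ± 0.10), while its relative ERO1B rose by 1.03 ± 0.16. XBP1, the transcription factor that plasma cells need for secretion, fell from 2196, 2499 and 2178 to 1325, 1438 and 1435 CPM (-0.71 ± 0.075). DNAJB9, an ER J-domain protein, fell by 0.60 on the log2 scale, and HERPUD1, a scaffold of ER-associated degradation, was not called at 0.13 ± 0.087. None of the 11 genes of ER-associated degradation rose, and 7 fell. The machinery that takes proteins into the ER followed: of 27 translocation and secretion genes 25 fell and only SRP14 rose (median -0.74), with SSR3, a translocon subunit, from 448, 456 and 451 to 143, 156 and 153 CPM (-1.58 ± 0.072). The call of SRP14 (0.28 ± 0.089) was lost without DMSO replicate 1 or 3 or carfilzomib replicate 1 or 2.

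**Figure D3:**
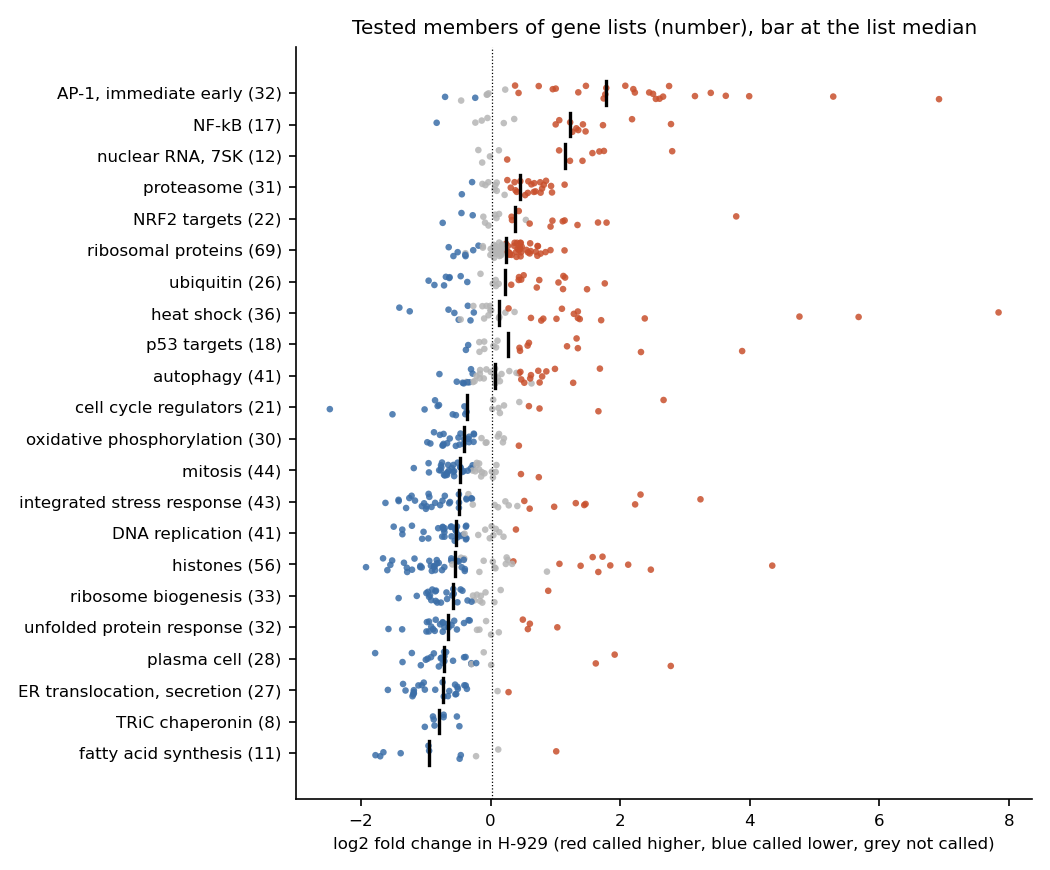
Each point is a tested member of a gene list in H-929, placed by its log2 fold change, with red called higher, blue called lower and grey not called, the number tested in brackets and the list median as a black bar. The dotted line is the median of all genes (0.03). AP-1, NF-kB and nuclear RNA lists have medians above 1, and the lists of the ER, the plasma cell and fatty acid synthesis have medians between -0.65 and -0.95.

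These stress programmes differed from those of RPMI, as a test of the difference between the responses shows (interaction of line and treatment in edgeR, 12 libraries). Over all 17930 genes in that fit, the response was larger in H-929, in the signed sense of H-929 minus RPMI, for 3615 (20.2%) and smaller for 3299 (18.4%). For the integrated stress response it was smaller in H-929 for 37 of 44 genes and larger for 1, with a median change of 0.93 in RPMI against -0.49 in H-929. All 11 synthetases were among the smaller ones, with a median of 0.58 in RPMI. The responses of TRIB3 and CHAC1 differed by -2.15 ± 0.20 and -2.11 ± 0.31 (SE, adjusted p = 1.5e-07 and 3.7e-05), and ASNS and ATF4 differed by -1.53 ± 0.26 and -1.22 ± 0.089. Of 32 genes of the unfolded protein response 24 were smaller in H-929 and 1 larger. HSPA5 rose in RPMI, by 1.76, and differed by -2.42 ± 0.11 (adjusted p = 3.9e-11), and DNAJB9 and HERPUD1 differed by -1.55 ± 0.12 and -1.18 ± 0.11. For DDIT3 the difference was -0.017 ± 0.14 (adjusted p = 0.95).

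The chaperone response differed from that of RPMI in both directions: of 39 genes of the heat shock list 7 had a larger and 18 a smaller response in H-929, and of 15 in the HSP70 family 1 and 8. The sum of HSPA1A and HSPA1B rose by 1.88 ± 0.48 more in H-929 than in RPMI (adjusted p = 0.0049), and by 6.86 ± 0.64 more than the mean of the other 7 lines (adjusted p = 1.6e-12). DNAJB1 also rose more than in RPMI, by 1.90 ± 0.14. HSPB1, HSP90AA1, ZFAND2A, HMOX1 and GABARAPL1 rose less, with differences of -1.72 ± 0.14, -1.35 ± 0.12, -1.77 ± 0.20, -1.99 ± 0.31 and -2.98 ± 0.17. CRYAB, a small heat shock gene too low in H-929 to be tested there, differed by -4.63 ± 1.58, and that call was lost without H-929 DMSO replicate 1 or 3 or RPMI carfilzomib replicate 2. Of 31 proteasome subunits 21 had a smaller response in H-929 and 1 a larger one, with a median of 0.91 in RPMI. PSMA4 and PSMD12 differed by -1.09 ± 0.11 and -1.23 ± 0.13. Against the mean of the other 7 lines, the response in H-929 was larger for 3998 of 22309 genes (17.9%) and smaller for 5688 (25.5%). By that contrast 26 of 32 genes of the unfolded protein response, 26 of 27 secretion genes, 11 of 11 synthetases and 22 of 31 proteasome subunits were smaller. Among 32 immediate early genes, 21 were larger and 4 smaller.

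**Figure D4:**
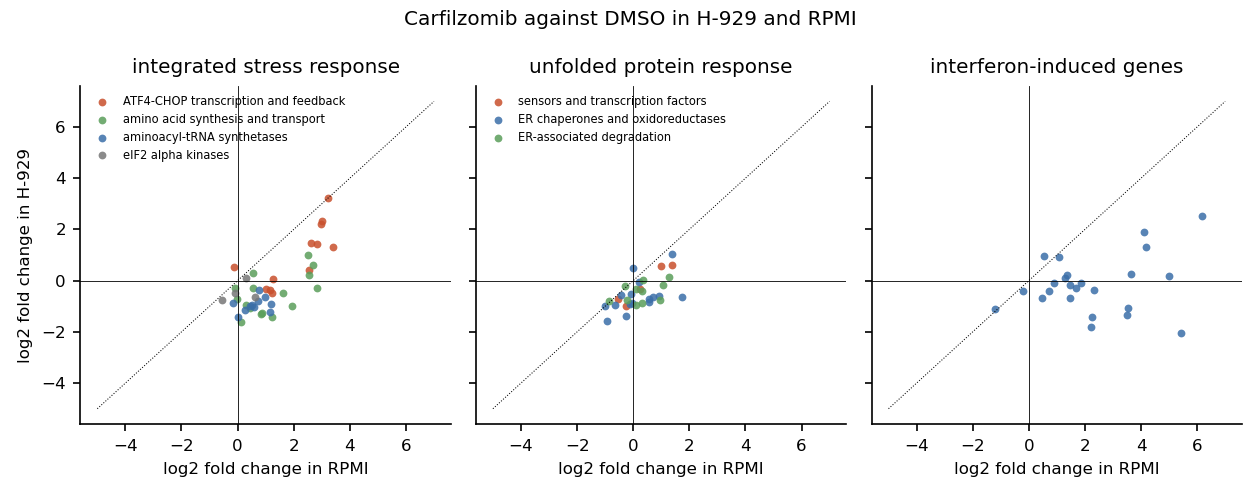
Log2 fold change, carfilzomib against DMSO, in RPMI (horizontal) and H-929 (vertical) for tested members of 3 gene lists, with colours for roles and a dotted line where both are equal. Most points lie under the line. By the test of the difference, 37 of 44 genes of the integrated stress response and 24 of 32 of the unfolded protein response had a smaller response in H-929. So did 20 of 24 genes of the interferon list, which also holds antigen presentation genes.

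Oxidative stress genes rose. HMOX1, heme oxygenase, went from 18.7, 16.6 and 18.4 to 117, 95.9 and 114 CPM, a log2 fold change of 2.61 ± 0.11 (adjusted p = 3.3e-10). OSGIN1, an oxidative stress growth inhibitor, rose by 3.79 ± 0.21, GCLM, the regulatory subunit of glutathione synthesis, by 1.66 ± 0.15, and ME1, which supplies NADPH, by 1.79 ± 0.094. TXNRD1, thioredoxin reductase, rose by 0.33 ± 0.082. Of 22 NRF2 targets tested 12 rose and 3 fell (median 0.38). The antioxidant response element (TGACNNNGC) was in 8 of 19 of their promoters (42.1%), against 16.1% of all promoters and 19.3% of those of genes tested. It was not particular to this list. The heat shock list had it in 12 of 36 promoters (33.3%), the integrated stress response in 12 of 37 (32.4%) and the metallothionein list in 4 of 6. TFRC, the transferrin receptor, fell from 527, 584 and 634 to 233, 233 and 210.4 CPM (-1.37 ± 0.083). Of 5 metallothionein and metal response genes tested 3 rose: MT1X, a metallothionein, at 2.09 ± 0.24, the zinc exporter SLC30A1 at 0.997 ± 0.092 and MTF1, the metal-sensing transcription factor, at 0.38 ± 0.14. MT2A was not called (1.21 ± 0.50, adjusted p = 0.055), with groups that overlapped at 1.20, 2.12 and 0.681 and 4.65, 1.62 and 3.06 CPM.

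Autophagy genes moved in both directions, and more lysosomal genes fell than rose. Of 41 autophagy genes 13 rose, 8 fell and 20 were not called, with a median of 0.07 that turned below 0 in the fit of all 48 libraries (-0.088) and with no filter (-0.0055). GABARAPL1, an ATG8 protein of the autophagosome membrane, rose from 16.8, 11.98 and 13.3 to 44.1, 47.9 and 43.7 CPM (1.69 ± 0.14), and its relative GABARAP fell by 0.33 on the log2 scale. SQSTM1, the cargo receptor p62, has 2 rows under its identifier, and the row named for it reached only 55 counts, so its rise of 3.07 ± 0.40 is uncertain. Of 46 lysosomal genes 18 fell and 5 rose (median -0.15). Over all genes tested 26.2% fell and 26.4% rose, and of those between 10 and 100 CPM 35.8% fell and 21.7% rose. LAPTM4B, a lysosomal membrane protein, fell by 1.41 on the log2 scale, and GLA, alpha-galactosidase, rose by 1.57 ± 0.12.

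Immediate early and stress-kinase genes had the highest median of the lists with more than 20 genes tested. Of 32 tested 25 rose, 21 of them by at least 2-fold, and 2 fell, with a median of 1.78. JUN (ENSG00000177606), the AP-1 subunit, went from 109, 115 and 95.3 to 874, 882 and 1082 CPM, a log2 fold change of 3.15 ± 0.10 (adjusted p = 2.1e-11). IER5, which activates heat shock factor HSF1, rose from 19.3, 24.2 and 23.2 to 345, 325 and 390.1 CPM (3.99 ± 0.11). GADD45G, a stress sensor of the p38 and JNK kinase pathways, rose from 0.228, 0.0542 and 0.136 to 17.3, 20.2 and 16.2 CPM (6.92 ± 0.37), and KLF4, a zinc finger transcription factor, by 5.29 ± 0.22. FOS rose by 0.43 ± 0.12 in H-929 and fell in RPMI (-0.99), a difference of 1.40 ± 0.30. DUSP6, a phosphatase induced by ERK, fell by 0.70 on the log2 scale. Of the 32 genes 18 had a larger response than in RPMI and 3 a smaller one.

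NF-kB genes rose as well. Of 17 tested 11 rose, all by at least 2-fold, and only REL fell (-0.83 ± 0.094), with a median of 1.23. NFKBIA (ENSG00000100906), the inhibitor IkB alpha that the proteasome normally degrades and that NF-kB itself induces, went from 79.3, 93.5 and 96.2 to 538, 609.6 and 705 CPM (2.78 ± 0.11, adjusted p = 1.3e-10). RELB and NFKB2, the subunits of the noncanonical pathway, rose by 1.26 ± 0.10 and 1.06 ± 0.078, and TNFAIP3, the feedback inhibitor A20, by 1.23 ± 0.11. BIRC3, an NF-kB-induced inhibitor of apoptosis, rose by 2.06 ± 0.18. The list of interferon-induced and antigen presentation genes holds 36, of which 12 share an identifier and are not used. Of the 24 tested 9 fell and 5 rose, where 26.2% of all genes tested fell and 26.4% rose. IFIT2 was at 2.51 ± 0.21 and MX2 at -1.82 ± 0.27. In RPMI the median of the 24 genes was 1.77, and 20 of them had a smaller response in H-929.

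Regulators of cell death moved in both directions. Of 35 tested 12 rose and 13 fell, where 26.4% of all genes tested rose and 26.2% fell, so movement both ways is not particular to this list. Its median of -0.027 changed sign under upper quartile scaling (0.11), with a mean of at least 50 counts (0.0052) and with protein-coding rows only (0.028). BBC3, the BH3-only protein PUMA, rose from 10.2, 7.81 and 9.87 to 51.1, 63.7 and 70.9 CPM (2.74 ± 0.15). PMAIP1, the BH3-only protein NOXA, rose from 21.3, 20.8 and 19.3 to 94.5, 73.5 and 86.3 CPM (2.05 ± 0.12), and the effector gene BAX by 0.79 ± 0.11. MCL1, the pro-survival protein that myeloma cells depend on and that NOXA binds, rose by 0.50 ± 0.071, and the death receptor gene TNFRSF10B by 0.42 ± 0.10. XIAP, an inhibitor of caspases, fell from 214, 229 and 224 to 103, 119.9 and 99.9 CPM (-1.05 ± 0.086). Of 18 p53 targets 9 rose and 2 fell, among them CDKN1A, the cyclin-dependent kinase inhibitor p21, from 79.5, 90.02 and 95.9 to 239.6, 213 and 223 CPM (1.35 ± 0.089), and PLK2, a stress-induced kinase, at 3.88 ± 0.12.

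Genes of proliferation fell. Of 41 DNA replication genes 31 fell and only POLE rose (median -0.54), and of 44 mitotic genes 28 fell and 2 rose (median -0.46). MKI67, the proliferation marker, went from 1306, 1272 and 1338 to 758, 655 and 606 CPM (-0.96 ± 0.083), and MCM5, a subunit of the replicative helicase, from 212, 214 and 226 to 143, 119 and 136 CPM (-0.71 ± 0.084). CCNB1, cyclin B1, was not called (-0.13 ± 0.10, adjusted p = 0.29), and its groups overlapped. CCND2, a D-type cyclin, had the largest fall of any gene named by the rule for the largest changes, from 115, 114 and 121 to 20.4, 22.1 and 20.4 CPM (-2.48 ± 0.10, adjusted p = 1.5e-10), and CCND1 fell by 1.51 on the log2 scale. CDKN2B, the inhibitor p15, rose from 12.4, 11.98 and 12.6 to 76.1, 74.2 and 85.5 CPM (2.67 ± 0.11). Of 56 replication-dependent histone genes 33 fell and 10 rose, but these are near-identical copies whose reads may be divided wrongly. Their share of all counts was 0.588% to 0.649% in DMSO and 0.361% to 0.409% after carfilzomib.

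Plasma cell genes fell. Of 28 tested 22 fell and 3 rose, with a median of -0.71, and whether fewer cells of a type or less RNA per cell lies behind such a fall cannot be told apart in bulk RNA. JCHAIN (ENSG00000132465), the joining chain of secreted IgA and IgM, went from 4750.4, 5056 and 4876 to 1770.5, 2109 and 1851 CPM, a log2 fold change of -1.36 ± 0.077 (adjusted p = 7.4e-09). SDC1, the plasma cell surface proteoglycan CD138, fell from 511, 550.0 and 491 to 196, 214 and 259.6 CPM (-1.21 ± 0.10). GPRC5D, an orphan receptor of plasma cells, fell from 156, 168 and 170.1 to 46.2, 43.1 and 54.6 CPM (-1.78 ± 0.10), and TNFRSF17, the receptor BCMA, from 333, 379 and 344 to 218, 221 and 218 CPM (-0.68 ± 0.074). The lineage transcription factors followed: IRF4 fell from 1919, 2014 and 1931 to 1262, 1142 and 1113 CPM (-0.74 ± 0.071), and POU2AF1 and PRDM1 fell with log2 fold changes of -1.08 and -0.30. The 3 that rose did so from low levels: CD79A, a B cell receptor subunit, was at 0.285, 0.271 and 0 and then 1.01, 1.08 and 2.08 CPM, CXCR4, a chemokine receptor, at 1.26, 1.79 and 0.545 and then 6.06, 4.76 and 2.95, and CIITA, the regulator of MHC class II genes, at 2.68, 3.80 and 3.47 and then 8.79, 12.1 and 9.85. JCHAIN fell less than in RPMI, by 1.54 ± 0.15 on the log2 scale.

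Genes that drive myeloma moved apart from one another. NSD2 was at 1518, 1468 and 1554 CPM in DMSO and 1489, 1654 and 1548 CPM after carfilzomib, and FGFR3 at 535, 483 and 519.7 and 560.4, 536 and 584 CPM. Neither was called (0.048 ± 0.069 and 0.13 ± 0.071, adjusted p = 0.59 and 0.15), although FGFR3 was called under upper quartile scaling (0.26), with a mean of at least 50 counts (0.24) and with protein-coding rows only (0.18). MYC was not called (-0.14 ± 0.077, adjusted p = 0.16), while its relative MYCL rose from 5.42, 4.23 and 5.17 to 99.01, 111 and 126 CPM (4.50 ± 0.14, adjusted p = 1.3e-11), as did its antisense partner MYCL-AS1, from at most 2 counts a library. Whether reads were counted by strand is not given, so the 2 cannot be told apart. MAFA, a large MAF transcription factor best known from insulin-producing cells, rose from 0.628, 0.108 and 0.272 to 40.8, 45.3 and 63.1 CPM (7.17 ± 0.31). The carfilzomib libraries lay far above all DMSO libraries in MYCL and MAFA.

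**Figure D5:**
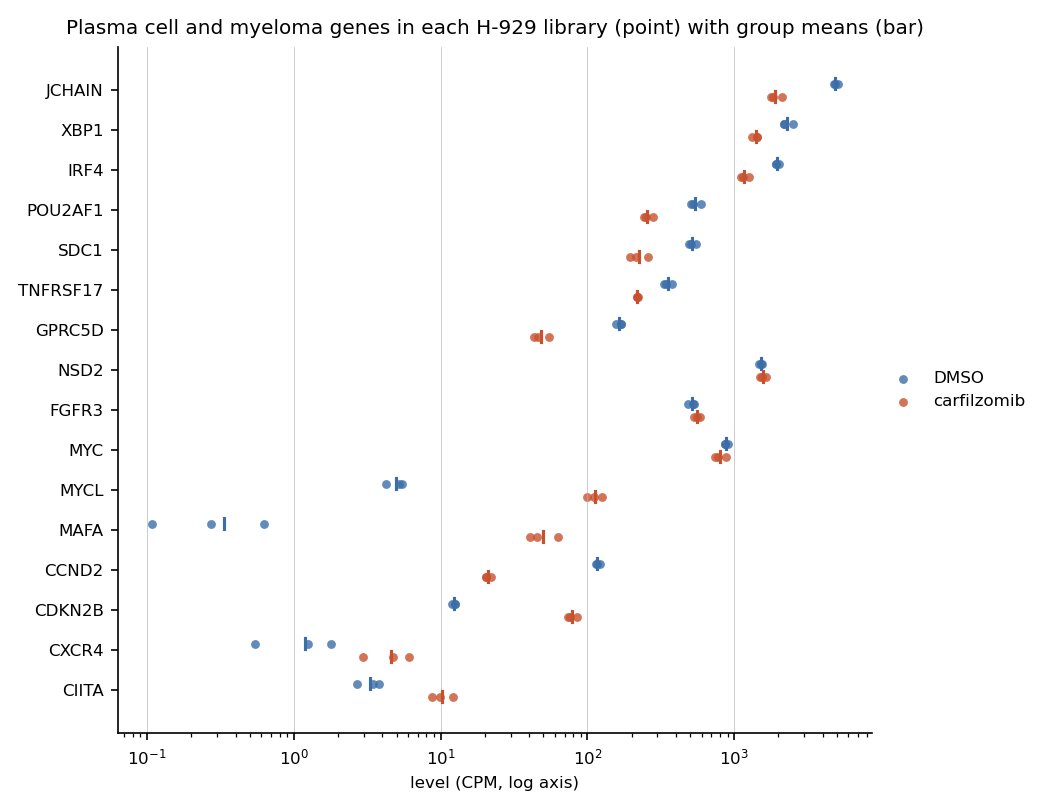
Level of 16 plasma cell, myeloma and cell cycle genes in each H-929 library (CPM, log axis), with points for the 3 DMSO and 3 carfilzomib libraries and bars for the group means. Plasma cell genes such as JCHAIN, SDC1 and GPRC5D lie lower after carfilzomib, NSD2 and MYC overlap, and MYCL and MAFA rise by more than an order of magnitude.

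Most genes fell in the lists of ribosome biogenesis, lipid synthesis and oxidative phosphorylation, while ribosomal protein and glycolytic genes did not share that direction. Of 33 ribosome biogenesis genes 23 fell and 1 rose (median -0.57), with POLR1B, a subunit of RNA polymerase I, at -1.42 ± 0.10. Of 11 genes of fatty acid synthesis 8 fell (median -0.95), with the desaturase FADS1 from 194, 203 and 197 to 61.9, 55.1 and 56.5 CPM (-1.77 ± 0.083). Of 21 sterol synthesis genes 13 fell and 3 rose, with IDI1, an isomerase of the pathway, at 1.75 ± 0.12. Of 30 nuclear genes of oxidative phosphorylation 22 fell and only NDUFA1 rose (median -0.41). The call of NDUFA1 was lost without DMSO replicate 3 or carfilzomib replicate 1 or 2, and its log2 fold change went from 0.44 to 0.27 without the first of these. Of 69 cytosolic ribosomal protein genes 35 rose and 7 fell, with a median of 0.24. Of 30 genes of glycolysis and hypoxia 12 rose and 13 fell, with 7 and 8 among the 18 of glycolysis. EGLN3, an oxygen-sensing prolyl hydroxylase, rose from 0.685, 0.380 and 1.09 to 18.1, 21.4 and 24.3 CPM (4.91 ± 0.31), while the glycolytic gene PGK1, which the same hypoxia programme induces, fell by 1.04 on the log2 scale.

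Nuclear noncoding RNAs took a larger share of the libraries. RN7SK, the 7SK RNA that holds the elongation kinase P-TEFb inactive, was at 13076, 13448 and 11738 CPM in DMSO and 40076, 37378 and 45095 CPM after carfilzomib, a log2 fold change of 1.68 ± 0.083. HEXIM1 (ENSG00000186834), the protein partner of 7SK, rose from 37.7, 38.8 and 37.99 to 265, 263 and 271 CPM (2.80 ± 0.079, adjusted p = 5.9e-12). NEAT1, the scaffold RNA of paraspeckles, and MALAT1, an RNA of nuclear speckles, rose by 1.75 ± 0.076 and 1.57 ± 0.10, and RMRP, an RNA of mitochondrial and ribosomal RNA processing, by 1.42 ± 0.089. Of 12 genes on the list 8 rose and none fell. By gene type, 201 of 410 long intergenic noncoding genes rose and 13 fell, as did 201 and 14 of 442 antisense genes and 158 and 1 of 199 snoRNA genes. Protein-coding genes had 3121 rises and 3885 falls among 12849. RNA quality values are not given in the sources used here, and their part in this shift was not tested.

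More genes were detected after carfilzomib although the libraries were shallower. A DMSO library held 20323 to 20970 genes with at least 1 count and a carfilzomib library 22685 to 22943. Thinned to the lowest total of the 6, the ranges were 19588 to 19892 and 22582 to 22935. At full depth 697 genes had no count in any DMSO library and at least 1 in every carfilzomib library, 411 of them protein-coding, and 85 showed the reverse. At equal depth the numbers were 950 and 50. Most were barely above 0, with a median of 13 counts over the 3 carfilzomib libraries, and 108 reached 5 counts in each. Genes of other lineages that passed the count filter moved both ways: of 24 tested 7 rose and 6 fell. That is near the shares over all genes tested, of which 26.4% rose and 26.2% fell. Of 9 neuronal genes 4 rose and none fell, while of all genes between 1 and 10 CPM 33.2% rose and 5.92% fell. SYP, a synaptic vesicle protein, was at 0.742, 0.868 and 0.817 and then 6.06, 6.16 and 7.33 CPM, and COL1A1, a collagen on the fibroblast list, at 0.628, 0.217 and 1.16 and then 4.85, 4.76 and 6.68 CPM. Of 7 germline genes 5 fell and 1 rose, and of 4 muscle genes 2 rose and MB, myoglobin, fell (-1.77 ± 0.30). The summed level of the mature B cell markers was 0.568 to 0.902 CPM in DMSO and 5.46 to 7.55 CPM after carfilzomib, and CD22 was at 0 in the DMSO libraries. That of the fibroblast markers was 0.318 to 1.37 and 6.35 to 9.71 CPM, that of the monocyte and macrophage markers 2.81 to 4.37 and 9.27 to 11.5 CPM, and that of the T and NK cell markers 21.9 to 23.8 and 18.5 to 23.8 CPM.

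The largest rises with a mean of at least 50 counts began at or near 0. HSPA7, a transcribed relative of HSPA6 close enough that reads may be shared, had no count in DMSO and stood at 7.27, 8.11 and 11.3 CPM after carfilzomib. It was at least 49.5-fold higher, against a floor of 3 counts in each DMSO library. TMEM35A, an assembly chaperone of nicotinic receptors, had no count in DMSO either and stood at 5.86, 8.11 and 4.27 CPM, at least 33.9-fold higher. POU3F1, a POU-domain transcription factor of neural and epidermal cells, went from 3 counts over the 3 DMSO libraries to 505 over the carfilzomib libraries, a ratio of 301 with a 95% counting interval from 102.5 to 1466. RNF151, MYCL-AS1 and ASTL likewise had 1 to 2 DMSO counts in all, and SPEGNB had 4 at most in a library. FAM166A rose from 0.514, 0.163 and 0.545 to 73.95, 76.5 and 85.1 CPM (7.60 ± 0.22), and ATP1B2, a beta subunit of the sodium pump, from 0.970, 0.217 and 0.204 to 74.4, 68.3 and 76.5 CPM (7.24 ± 0.27). IQCN rose from 0.285, 0.217 and 0 to 31.3, 37.6 and 39.7 CPM (7.60 ± 0.33). HSPA6 and MAFA complete these 12.

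The limit of 50 counts in the naming rule applies to the group with the higher level, which for a fall is DMSO. The largest falls therefore had measurable DMSO levels by selection. After CCND2 they included TGFBR2, the type II receptor of TGF-beta, from 111, 114 and 98.4 to 21.1, 23.5 and 28.3 CPM (-2.15 ± 0.12), SLC16A7, a monocarboxylate transporter, from 78.7, 83.6 and 80.1 to 13.03, 20.2 and 20.5 CPM (-2.18 ± 0.15), and CCR1, a chemokine receptor, from 273, 287 and 236 to 46.7, 69.7 and 86.8 CPM (-1.97 ± 0.16). MAL2, BCYRN1, DDAH1, CUX2, FERMT1, TSPAN7 and PAQR8 fell with log2 fold changes of -2.29, -2.19, -2.16, -2.04, -2.02, -1.99 and -1.96. CDRT15P1, a pseudogene, fell with a log2 fold change of -2.23, which became -3.68 without carfilzomib replicate 3. In each of these 12 genes every carfilzomib library lay below every DMSO library, which was a condition of the rule that named them.

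Genes whose response differed most from that of RPMI were of 2 kinds. BCAN, a brain proteoglycan, was at 50.003, 46.8 and 49.1 CPM in DMSO and 43.04, 50.4 and 46.5 CPM after carfilzomib in H-929 and was not called, while it rose by 5.95 in RPMI, a difference of -6.04 ± 0.45 (adjusted p = 1.3e-08). STOX2, BEX2, KCNG1, PLAGL1 and IFI44L, an interferon-induced gene, also rose in RPMI from near 0, with differences of -6.999 ± 0.72, -6.16 ± 0.48, -5.90 ± 0.97, -5.79 ± 1.04 and -7.50 ± 0.94. In H-929, KCNG1 was not called, and STOX2, BEX2, PLAGL1 and IFI44L fell, the last from 2.68, 3.09 and 0.817 to 0.202, 0.757 and 0.657 CPM. The largest positive differences belonged to genes that fell in RPMI and were near 0 in H-929: LINC01754, NEURL3, HRH1, FRMD1, KRT83 and MS4A4A, at 11.49 ± 0.70, 10.11 ± 1.16, 9.77 ± 1.43, 9.64 ± 1.88, 9.07 ± 1.28 and 8.94 ± 1.24. Only LINC01754 reached the count filter in H-929, with no count in DMSO and 1.82, 1.84 and 2.30 CPM after carfilzomib, at least 11.1-fold higher. Since the H-929 DMSO libraries hold at most 1 count of each, and the RPMI DMSO libraries little or none of BCAN, STOX2, BEX2, KCNG1 and PLAGL1, all these fitted differences but that of IFI44L depend on the model's prior and are no bound. That of FRMD1 became 4.45 (adjusted p above 0.99) without H-929 carfilzomib replicate 3.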

How the data were processed

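Gene counts of 48 RNA-seq libraries (8 lines, 2 treatments, 3 replicates) were used as deposited, in 1 table of 33892 rows, and every column was matched to a labelled sample. The deposited values are raw counts per gene, per the file header. Per the labels' protocols the libraries were made from total RNA with a stranded kit. The submitters' processing notes name bcl2fastq 2.19, FastQC, Trimmomatic, HISAT2, DESeq2 and the build hg38. The counting program, the annotation and the use of strand are not given in the sources used here. Gene types came from GENCODE 29 by identifier, for 29680 rows (87.6%). The 4803 rows that share an identifier were left out of the lists, and genes named from them are uncertain. RNA of mitochondrial genes and immunoglobulin heavy and light chains was not analysed here.

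The 6 H-929 libraries were fitted with edgeR 4.0.16 (TMM scaling, filterByExpr, quasi-likelihood F test) in R 4.3.3, with no replicate block, and p-values were adjusted over all genes tested (threshold 0.05). Standard errors are the log2 fold change divided by the root of F. The difference from RPMI is the interaction of line and treatment over 12 libraries, and that from the other 7 lines a contrast over all 48. The fit was tested on simulated counts in which few genes changed, in equal numbers up and down. That test does not cover changes as broad as those found here. Libraries of a group differed by more than sampling noise (chi-square per degree of freedom 6.97 to 9.96). Replicate numbers did not pair the libraries. Alternatives were DESeq2 1.42.0, other scalings and filters, thinning, a null fold of 1.5, a replicate block and leaving out each library. Counting intervals (95%) and the floor of 3 counts cover counting error only.

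The comparison and the gene lists were chosen with earlier results of these data known. Named genes are a set of fixed genes, the called member with the largest rise and the largest fall of each list and role, the 12 largest rises and falls, and the 6 largest differences from RPMI in each direction, with a mean of at least 50 counts. Other list members named in the text were chosen after their values were seen. Some genes that the rule names are not reported here.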

Additional observations from a re-analysis of the deposited data

Results flagged for a closer look

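The results listed here were singled out because the response to carfilzomib in H-929 differed from that in RPMI by a test of the difference itself (edgeR interaction, adjusted p under 0.05) and by at least 1 on the log2 scale. Values are H-929 minus RPMI, which are differences of log2 fold changes and not of the levels reached. Groups of 3 libraries were not tested for outliers.

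Chaperone genes were on both sides: the sum of HSPA1A and HSPA1B at 1.88 and DNAJB1 at 1.90, against HSPB1 at -1.72, CRYAB at -4.63 and HSP90AA1 at -1.355. In the ER and the integrated stress response, HSPA5 stood at -2.42, DNAJB9 at -1.55, HERPUD1 at -1.18, ATF4 at -1.22, TRIB3 at -2.15, ASNS at -1.53 and CHAC1 at -2.11. In the proteasome, oxidative stress and autophagy groups, PSMA4 stood at -1.09, PSMD12 at -1.23, ZFAND2A at -1.77, HMOX1 at -1.99 and GABARAPL1 at -2.98. JCHAIN stood at 1.54 and FOS at 1.40.

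The largest positive differences were those of LINC01754 (11.49), NEURL3 (10.11), HRH1 (9.77), FRMD1 (9.64), KRT83 (9.07) and MS4A4A (8.94). Over the 3 carfilzomib libraries of H-929, NEURL3 and HRH1 had 12 counts each, FRMD1 7, KRT83 17 and MS4A4A 8. The largest negative differences were those of IFI44L (-7.50), STOX2 (-7.00), BEX2 (-6.16), BCAN (-6.04), KCNG1 (-5.90) and PLAGL1 (-5.79). Of these, KCNG1 and PLAGL1 had no count in RPMI DMSO libraries.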

How the results depend on the processing

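Of 167 named results in H-929, the HSP70 sum included, 157 were called, and 8 of the calls were lost in at least 1 fit without 1 library (PSMB5, PSMG3, SRP14, NPC1, BAK1, TIGAR, PSMA4 and NDUFA1). Leaving out 1 library gave 3775 to 4115 rises, 3645 to 4167 falls, 2523 to 2730 rises and 639 to 842 falls of at least 2-fold, 9.35 to 10.2 for the HSP70 sum, and 3055 to 3554 larger and 2957 to 3394 smaller responses than in RPMI. The fit of all 48 libraries, which tests more genes, gave 6266 rises and 6400 falls, 4450 and 1428 of at least 2-fold. A null fold of 1.5 left 2257 rises and 1141 falls. Of at least 2-fold, falls were 407 under upper quartile scaling, 382 with a mean of at least 50 counts and 442 with protein-coding rows only, and rises were 3881 with no filter and 1214 with that mean. At equal depth, 50 genes were lost from detection, against 85. DESeq2 called 4828 rises and 4001 falls.

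Signs turned only in values that were not called in the fit reported. CCNB1 was at 0.0018 under upper quartile scaling. With no filter ATF4 was at -0.016, PSMC4 at -0.024, PSMD12 at -0.018 and NSD2 at -0.033. In the fit of all 48 libraries HERPUD1 was at -0.036, ATF4 at -0.099, PSMC4 at -0.095, PSMD12 at -0.099, FGFR3 at -0.035 and NSD2 at -0.12, the last with an adjusted p of 0.034. Without 1 library PSMC4 ran from -0.67 to 1.69, ATF4 from -0.0046 to 0.076, PSMD12 from -0.081 to 0.15 and NSD2 from -0.026 to 0.051. Against RPMI, DDIT3 was at 0.046 with a mean of at least 50 counts and ran from -0.11 to 0.084 without 1 library, GCLM was at -0.00078 in the fit of all 48 libraries and ran from -0.010 to 0.17, HSPA6 ran from -0.40 to 0.17 and PSMC4 from -1.69 to 3.26. The cause was not tested.

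The replicate block gave 4046 rises and 4174 falls. Same-numbered libraries deviated together by r of -0.026, 0.043 and 0.011, so the numbers name the libraries and do not pair them. Depth limits the genes near 0: a gene with no DMSO count has only a lower bound on its rise.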
